A study of Homo sapiens with 30 samples.

Results

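The 10 genes described here are SLC6A9, SLC29A1, SLC29A2, SLC7A5, SLC3A2, SLC1A5, SLC1A4, SLC7A1, SLC38A1 and SLC38A2. They encode carriers that move amino acids or nucleosides across the plasma membrane, except that SLC3A2 encodes a partner chain of such a carrier. All 10 are called carriers below. They were taken by symbol from a list of names and are 10 of the 61578 genes in the count tables. SLC6A9 and SLC29A2 are on that list because they were lower after treatment in the T4V line, so for these 2 genes the T4V values are a description with no test, and counts for T4V are over the other 8 genes. All 10 passed the filter on low counts.

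The libraries, 30 in 15 groups of 2, hold poly(A) RNA. They come from a Mock group, a line whose RPB1 could be removed and 6 lines in which it could also be replaced. RPB1, encoded by POLR2A, carries the catalytic centre of RNA polymerase II and ends in the CTD, a tail of repeats of 7 residues that kinases and phosphatases modify during transcription. The Mock group was untreated and labelled WT in genotype. The degron line carries an RPB1 that dTAGV-1, a small molecule that brings a tagged protein to a ubiquitin ligase, can remove. It was sampled untreated and after 100 nM dTAGV-1 for 12 h, with no doxycycline named. The WT, Y1F, S2A, T4V, S5A and S7A lines have the same degron plus an RPB1 switched on by doxycycline, with a normal CTD (WT) or with residue 1, 2, 4, 5 or 7 of the repeat changed. These 6 lines were sampled untreated and after 2 µg/mL doxycycline for 24 h followed by 100 nM dTAGV-1 for 12 h. Treated WT and treated degron libraries therefore differ in doxycycline as well as in the replacement protein. Every group is labelled A549, a human lung adenocarcinoma line, and is said to include 10% fly S2 cells as a spike-in. Not given in the sources used here are whether a line is 1 clone, how many repeats were changed and whether the 2 libraries of a group came from separate cultures, so p-values measure the spread between libraries, which may be technical. The question was how each CTD change alters mRNA levels once the endogenous protein is gone.

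Amino acid and nucleoside carriers work in a few families. SLC7A5 (LAT1) exchanges large neutral amino acids such as leucine for intracellular glutamine and needs SLC3A2, the CD98 heavy chain, to reach the membrane. SLC1A5 (ASCT2) and SLC1A4 (ASCT1) are related sodium-dependent exchangers, the former best known for glutamine and the latter for alanine, serine and cysteine. SLC38A1 (SNAT1) and SLC38A2 (SNAT2) accumulate small neutral amino acids with sodium, SLC7A1 (CAT1) carries arginine and lysine, and SLC6A9 (GlyT1) takes up glycine. SLC29A1 (ENT1) and SLC29A2 (ENT2) let nucleosides equilibrate across the membrane and feed nucleotide salvage. Dividing cells rely on these carriers for protein and nucleotide synthesis, and mRNAs of several of them are known to rise under amino acid shortage through the transcription factor ATF4.

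The lines were checked against markers of their labelled origin. Summed over 16 A549 markers, the level was 33747 and 33943 TPM (counts per gene length, scaled to the same total in every library) in the Mock libraries and 79.5 to 156 TPM in the other 28 libraries. Keratin KRT7 stood at 1446 and 1593 TPM in Mock and at 0.17 TPM or less elsewhere, and 7 of the 16 markers were under 1 TPM in all of the 28. CDKN2A, which A549 is known to have lost, was at 0 TPM in Mock and at 96.1 to 191 TPM in the 28 libraries. A list of 9 genes of HEK293 or neuronal cells summed to 78.5 and 84.7 TPM in Mock, to 591 to 908 TPM in the 14 untreated line libraries and to 289 to 657 TPM in the 14 treated ones, and its part in the results below was not tested. Not every marker followed this split. KRT8 (19.8 to 71.5 TPM) and KRT18 (28.5 to 65.0 TPM) were present in all 28 libraries, though at 2496 TPM or more in Mock, and NKX2-1, on the same list, was at 1.53 to 14.1 TPM in the 28 and at 0.30 TPM or less in Mock. INA and CDH2 made up most of the Mock sum of the HEK293 or neuronal list: INA was at 55.7 and 51.2 TPM in Mock and 0.10 to 10.1 TPM elsewhere, and CDH2 at 20.2 and 19.5 TPM in Mock and 17.9 to 57.0 TPM elsewhere. Summed immune markers were 1.91 to 4.73 TPM untreated and 7.57 to 35.4 TPM treated, mostly CD14, with PTPRC at or near 0; endothelial markers were 0.316 to 1.97 and 1.36 to 5.15 TPM and fibroblast markers 12.1 to 32.0 and 10.0 to 33.5 TPM, with COL1A2 and DCN near 0, and the part of these in the results was not tested. POLR2A mRNA rose in 5 of 7 lines and fell in 0 (log2 0.55 to 1.46), and this does not check removal of the protein. Whether reads of the introduced gene, which the degron line lacks, were counted with those of the endogenous gene is not given. Totals were 10866089 to 17912802 counts per library. The 2 libraries of a group stood farthest apart in untreated T4V, treated WT, treated degron and treated S7A.

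**Figure D1:**
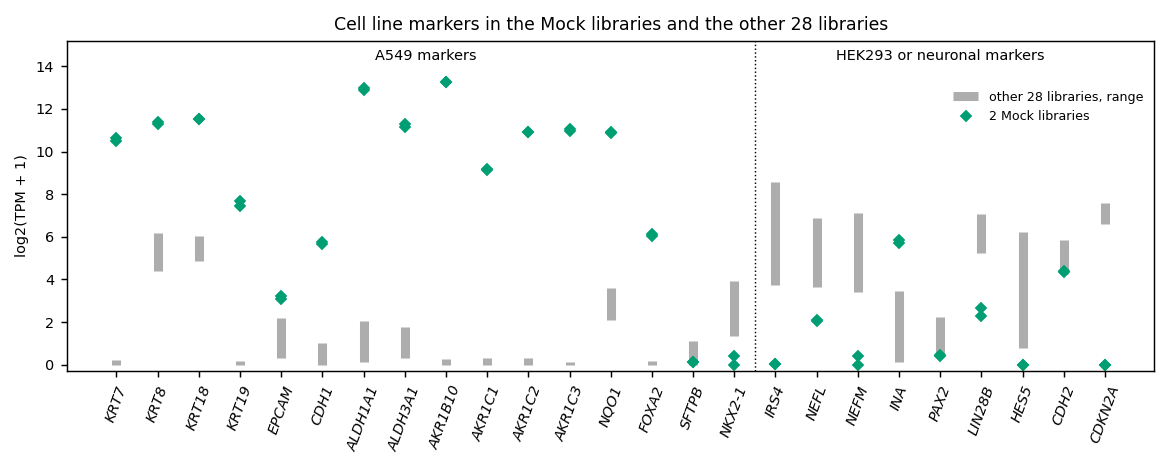
Level of A549 markers (left) and of HEK293 or neuronal markers (right), as log2(TPM + 1), in the 2 Mock libraries (diamonds) and as the range over the other 28 libraries (grey bars). KRT7 stands at 1446 and 1593 TPM in Mock and at most at 0.17 TPM in the 28, whereas CDKN2A is at 0 in Mock and at 96.1 TPM or more in the 28.

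Promoter sequence was available from RefSeq for 9 of the 10 genes, at 16 start sites (build GRCh38.p14), and SLC29A2 had no entry. The 250 bases before the start are shown for the 4 carriers with a single listed start among those the results turn on: SLC6A9, with the lowest value among the members (a log2 change of -2.84 in S5A), SLC7A1, which fell in 6 lines, SLC38A2, which fell in 4, and SLC7A5, which fell in 1. Each is given 5′ to 3′ on the minus strand, and capitals mark a searched motif. The positions are chr1:44031463-44031712 for SLC6A9, chr16:87869508-87869757 for SLC7A5, chr13:29595689-29595938 for SLC7A1 and chr12:46372774-46373023 for SLC38A2.
SLC6A9: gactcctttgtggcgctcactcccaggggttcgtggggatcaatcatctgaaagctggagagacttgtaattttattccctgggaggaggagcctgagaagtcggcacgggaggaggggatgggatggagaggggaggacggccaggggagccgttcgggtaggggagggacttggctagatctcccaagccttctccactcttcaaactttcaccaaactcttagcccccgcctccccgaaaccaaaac
SLC7A5: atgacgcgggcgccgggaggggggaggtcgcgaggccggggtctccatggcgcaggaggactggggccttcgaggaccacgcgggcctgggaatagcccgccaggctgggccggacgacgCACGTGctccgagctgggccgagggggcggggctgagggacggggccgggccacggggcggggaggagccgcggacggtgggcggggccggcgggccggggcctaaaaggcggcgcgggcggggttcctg
SLC7A1: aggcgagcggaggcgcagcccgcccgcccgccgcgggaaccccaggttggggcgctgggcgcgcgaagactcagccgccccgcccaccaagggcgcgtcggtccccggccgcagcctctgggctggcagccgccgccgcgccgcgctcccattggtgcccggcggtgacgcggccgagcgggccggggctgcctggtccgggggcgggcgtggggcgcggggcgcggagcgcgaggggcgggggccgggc
SLC38A2: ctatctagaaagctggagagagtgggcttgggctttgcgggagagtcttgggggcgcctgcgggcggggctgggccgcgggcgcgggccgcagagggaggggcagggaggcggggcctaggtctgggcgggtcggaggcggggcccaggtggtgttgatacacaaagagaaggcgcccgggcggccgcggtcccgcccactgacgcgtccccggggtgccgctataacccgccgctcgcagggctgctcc
These windows differ in base composition: GC content was 57.6% for SLC6A9, 79.6% for SLC7A5, 84.4% for SLC7A1 and 73.6% for SLC38A2, against a median of 58.0% over 35116 promoters. Both strands were searched for CACGTG, the E-box bound by MYC and its relatives, for TGATGNAA, the core of the amino acid response element bound by ATF4 with a partner, and for TATAAA. An E-box lay 130 bases before the SLC7A5 start, at 1 of 2 SLC29A1 starts and at 1 of 3 SLC1A5 starts, and 6.34% of all promoters held one. TGATGNAA was found at another SLC1A5 start (3.14% of all promoters) and TATAAA at 1 of 2 SLC38A1 starts (10.7%). The windows of SLC6A9, SLC7A1 and SLC38A2 held none of the 3 motifs, which says only that these letters are not in these 250 bases.

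Before treatment the 10 mRNAs spanned a wide range of levels per length. Over the 7 untreated lines the median group level was 245 TPM for SLC1A5 (95.6 to 257), 218 TPM for SLC7A5 (146 to 280) and 143 TPM for SLC38A2 (126 to 152). It was 129 TPM for SLC3A2 (121 to 158), 117 TPM for SLC29A1 (82.1 to 128), 112 TPM for SLC7A1 (100.02 to 118) and 102 TPM for SLC38A1 (76.9 to 108). SLC29A2 followed at 61.7 TPM (38.3 to 83.9), then SLC6A9 at 8.59 TPM (5.55 to 10.97) and SLC1A4 at 3.76 TPM (2.78 to 4.52). Neighbouring ranges among the first 8 in this order overlap, and SLC6A9 and SLC1A4 lie below the rest and apart from each other. After treatment SLC6A9 ranged from 1.18 TPM (T4V) to 9.91 TPM (WT).

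Untreated lines were compared with the untreated degron line, which is the common control of these 6 comparisons. None of the 10 genes passed the test in the WT, Y1F or S5A line by edgeR or by DESeq2 (1 gene in each at an unadjusted p under 0.05), where 10.2%, 11% and 12.7% of tested genes were called. In S2A 5 were lower and 1 was higher, where 18% of tested genes were lower and 18.3% higher. SLC1A5 stood at 78.0 and 78.8 CPM (counts scaled to the library's TMM-adjusted size) in untreated S2A and 210.4 and 186 in the untreated degron line, with no overlap (log2 difference -1.34, SE 0.17, adjusted p 1.8e-06). SLC6A9 (-0.81), SLC7A5 (-0.62), SLC29A1 (-0.59) and SLC7A1 (-0.22) were also lower in S2A and SLC1A4 was higher (0.55), but without degron library 1 SLC1A5 alone passed, and without either S2A library 2 genes did. SLC1A4 was higher in T4V (0.72, adjusted p 0.02), lost without degron library 1 (adjusted p 0.22) or T4V library 1 (0.071). SLC29A2 was lower in S7A, at 23.7 and 27.1 against 60.1 and 50.5 CPM (log2 difference -1.12, SE 0.21, adjusted p 0.00076). Of the tested genes 5.69% were higher and 7.6% lower in T4V, and 8.42% were higher and 10.3% lower in S7A.

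The Mock libraries stood apart from the lines. SLC7A5 was at 949 ± 73.8 TPM in Mock (SD, n = 2), SLC3A2 at 457 ± 21.0 TPM and SLC1A4 at 29.3 ± 0.54 TPM, each above every untreated line. In the untreated degron line against Mock 7 members were lower and 3 higher, where 31.4% of tested genes were lower and 33.4% higher. SLC1A4 differed by -3.80 (SE 0.19, adjusted p 7.9e-14), SLC7A5 by -2.46 (SE 0.20, adjusted p 5.3e-10) and SLC3A2 by -2.21 (SE 0.16, adjusted p 3.6e-11). The higher genes were SLC29A2 (1.60), SLC7A1 (0.64) and SLC29A1 (0.38, lost without Mock library 1 or degron library 1). These are the libraries in which the A549 markers also differ, so the degron and the origin of the cells cannot be told apart here.

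Most of the 10 mRNAs fell after treatment in the degron, Y1F, S2A and S5A lines, and with the TMM scaling none fell in WT. Changes are relative to the typical gene, which the scaling (TMM) sets near no change. In the degron line 7 of 10 fell and 0 rose, where 21.4% of tested genes fell and 23.1% rose. In the WT line 0 fell and 1 rose, against 1.84% and 3.09% of tested genes. Of the mutants, S5A had 8 members fallen and 1 risen (24.2% and 25.5% of tested genes), Y1F 8 and 0 (21% and 23.1%) and S2A 6 and 0 (18.2% and 17%). In T4V 4 of 8 fell and 0 rose (14% and 14.8%), and in S7A 4 of 10 fell and 1 rose (17.1% and 17.8%). The median log2 change of the 10 was -1.11 in S5A and in the degron line, -0.87 in Y1F, -0.69 in S2A, -0.32 in S7A and 0.01 in WT, against 0.05 or less in size over all tested genes. In these bulk libraries fewer cells of a type and less RNA per cell cannot be told apart.

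**Figure D2:**
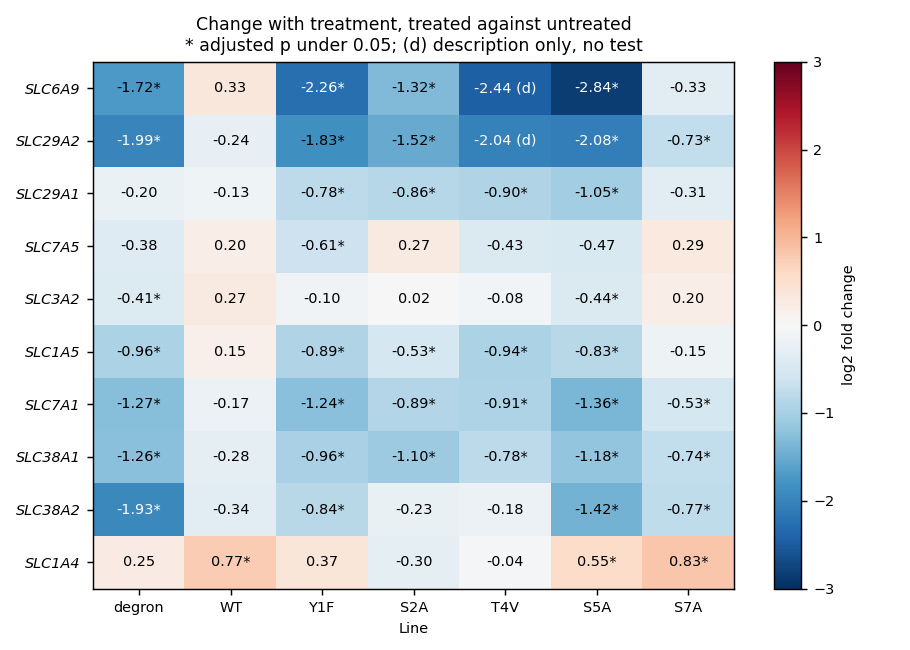
log2 fold change of treated against untreated libraries (colour and number) for the 10 carriers (rows) in the 7 lines (columns), with an asterisk at an adjusted p under 0.05 and (d) where the gene was chosen on that value. SLC7A1, SLC38A1, SLC38A2, SLC29A1 and SLC29A2 are negative in every column, SLC29A2 having been chosen on its T4V value. With this TMM scaling SLC1A4 is the one member with called rises, in WT, S5A and S7A, which are not called with the other scalings.

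Scaling changes how many are called. With library sizes set by 13 mitochondrial mRNAs the median tested gene moved by -0.17 (WT) to -0.70 (S5A), and 9 members fell in each of the degron, Y1F, S2A and S5A lines, 8 of 8 in T4V, 6 in S7A and 3 in WT, with 0 risen in any. Of the 19982 tested genes 8499 fell in the degron line, 7326 in Y1F, 9209 in S2A and 11359 in S5A by this scaling. In T4V 9645 fell, in S7A 7645 and in WT 1894, and 406 (WT) to 2667 (Y1F) rose in a line. With the factors behind the authors' deposited tables the median gene moved by -0.19 (WT) to -0.92 (S5A), and 10 members fell in the degron line, 9 in each of Y1F, S2A, S5A and S7A, 7 of 8 in T4V and 0 in WT, with 0 risen. Of the 19982 tested genes 12160 fell in the degron line, 11982 in Y1F, 8771 in S2A, 12495 in S5A and 12266 in S7A with these factors. In T4V 6733 fell and in WT 381, and 274 (WT) to 1750 (S5A) rose in a line. The authors' deposited table itself lists 9 of 10 as fallen in the degron, Y1F, S2A, S5A and S7A lines, 7 of 8 in T4V and 0 in WT. The share of all genes that fell in that table is not given here, so these counts are not set against it.

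The change after treatment differed between the line with a WT replacement and most of the others. The change in the WT line lay above that in the degron line for 7 of 10 members and below it for 0, where 8.24% of tested genes lay above and 3.79% below. Against the WT change, the change was lower for 8 of 10 members in S5A (11.7% of tested genes lower, 6.4% higher), 6 in S2A (4.66%, 2.87%), 4 in Y1F (6.31%, 3.42%) and 2 of 8 in T4V (2.35%, 1.36%), and higher for 0 in each. In S7A 0 of 10 were called against WT by edgeR or by DESeq2, with 1 at an unadjusted p under 0.05 (0.821% called). With the authors' factors 8 of 10 were lower in S7A than in WT, where 4306 of 19982 tested genes were lower, and 10 of 10 were lower in Y1F (6836 of 19982). Whether S7A differs from WT in these genes thus depends on the scaling. All 6 comparisons use the WT libraries, and the mutants were not tested against each other. The S2A count depends on single libraries: it was 1 without WT untreated library 2, 2 without WT untreated library 1, WT treated library 2, S2A treated library 2 or either untreated S2A library, and SLC7A1 was among those called each time. In T4V SLC1A5 lost its call, leaving SLC7A1, without WT untreated library 2, WT treated library 2 or T4V untreated library 1 (adjusted p 0.054 to 0.072).

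**Figure D3:**
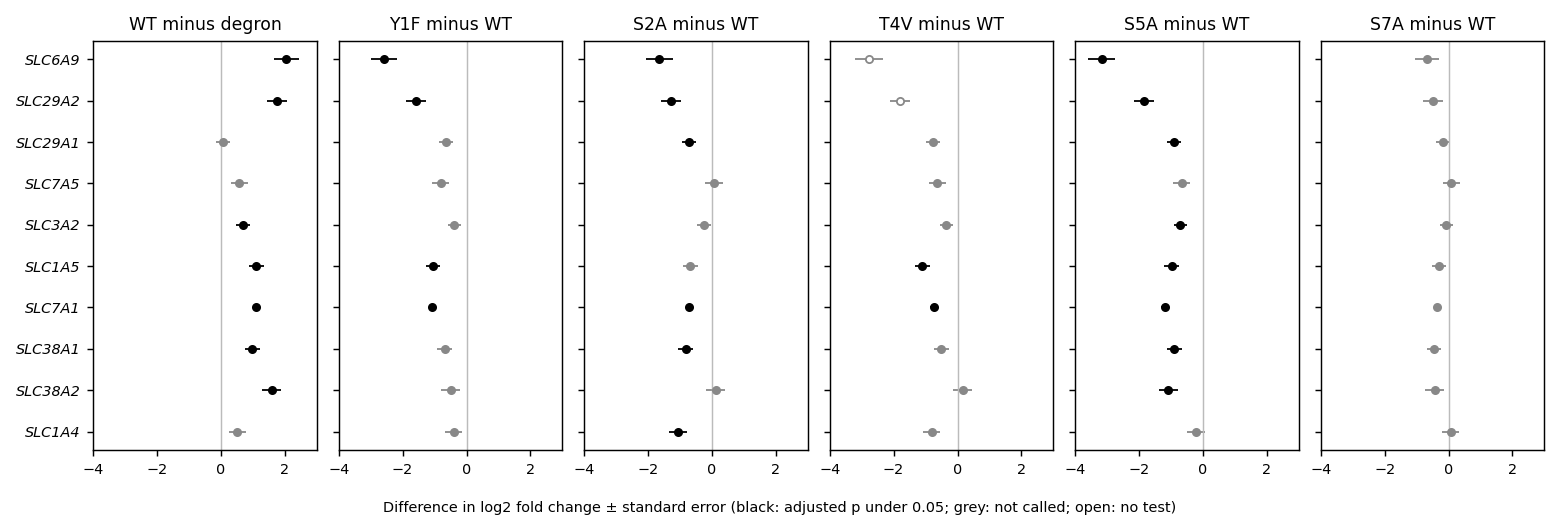
Difference between 2 lines in the treated minus untreated log2 change, with its standard error, for each carrier; black marks an adjusted p under 0.05, grey no call and open circles genes chosen on that value. The differences of the S5A line from WT reach -3.18 for SLC6A9, and none of the S7A differences is black with this scaling (8 of 10 pass with the authors' factors).

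SLC6A9, the glycine carrier, lies at chr1:43991500-44031467 (GRCh38, minus strand) and overlaps CCDC24 on the other strand. Its levels were low, with 12 to 244 counts a library. In the S5A line it stood at 13.2 and 14.1 CPM untreated and at 2.10 and 1.70 CPM treated. In Y1F the values were 14.04 and 9.63 against 2.36 and 2.63 CPM, and in the degron line 14.2 and 10.9 against 3.00 and 4.62 CPM. All treated libraries lay below all untreated ones in these 3 lines. The fall was -2.84 in S5A (SE 0.33, adjusted p 4.8e-07), 7.18-fold, -2.26 in Y1F (SE 0.31, adjusted p 6.8e-06) and -1.72 in the degron line (SE 0.29, adjusted p 5.3e-05). S2A was already lower when untreated, at 6.86 and 7.48 CPM, and fell to 3.51 and 2.20 CPM (-1.32, SE 0.33, adjusted p 0.0035). In T4V, where the gene was picked for it, 10.7 and 7.34 CPM stood against 1.16 and 2.09 CPM (-2.44).

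The WT line held SLC6A9 at 10.6 and 9.65 CPM untreated and 8.53 and 16.8 CPM treated, which overlap and gave no call, and the sign of the change turned without treated library 2 (-0.25). S7A, at 10.5 and 11.5 against 7.63 and 9.81 CPM, also gave no call (-0.33). The change in WT lay above that of the degron line by 2.05 (SE 0.39, adjusted p 0.0012). It differed from WT by -3.18 in S5A (SE 0.43, adjusted p 2.9e-05), -2.59 in Y1F (SE 0.41, adjusted p 0.0004) and -1.65 in S2A (SE 0.42, adjusted p 0.019). The S2A difference lost its call without any 1 of 6 libraries (adjusted p 0.05 to 0.13). CCDC24, with 16 to 106 counts, changed by -1.23 to -0.08 over the lines, and since the counting may or may not have used strand, reads in the overlap cannot be assigned to 1 of the 2 genes.

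Over the 15 group means SLC6A9 was most like PROSER3 (Pearson r 0.97), KNOP1 (0.95) and PFAS (0.94), the last an enzyme of purine synthesis, among 11415 genes averaging at least 5 CPM. Without Mock, over 14 groups, CDC42EP1 (0.97), PROSER3 (0.97) and FBXL19 (0.96) led. These are descriptions, as the groups share the contrast of treated and untreated libraries and the same scaling.

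**Figure D4:**
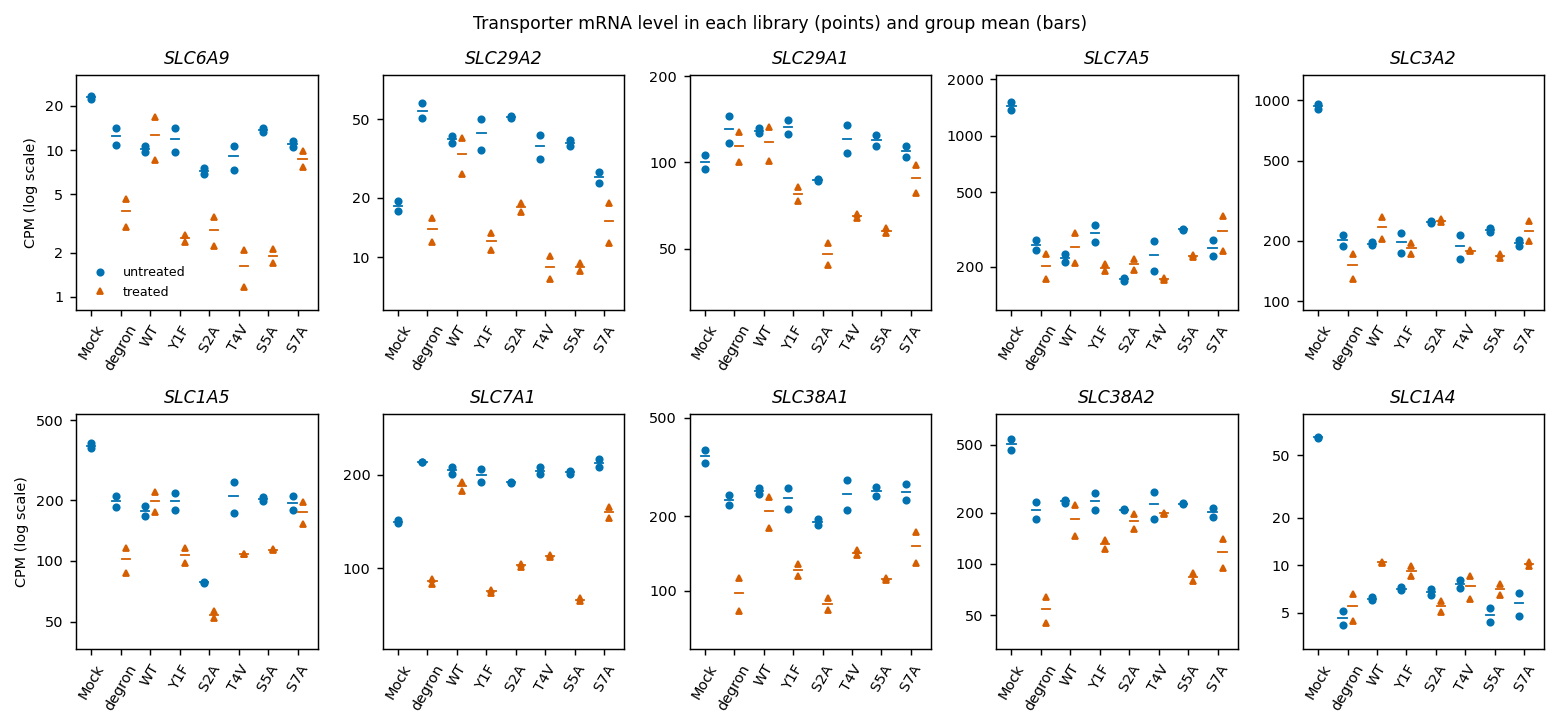
CPM (log axis) of each carrier in every library, by line, with untreated libraries as circles, treated libraries as triangles and the group mean as a bar. SLC7A1 shows tight pairs that part in each of the 7 lines, whereas the treated WT pair of SLC6A9 spans 8.53 to 16.8 CPM.

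The nucleoside carriers did not move alike. SLC29A2 lies at chr11:66362521-66372214 (minus strand) and SLC29A1 at chr6:44219505-44234151 (plus strand). SLC29A2 stood at 60.1 and 50.5 CPM in the untreated degron line and at 11.9 and 15.8 CPM after treatment. In S5A it went from 36.6 and 39.4 to 9.40 and 8.52 CPM, and in Y1F from 49.97 and 35.1 to 10.9 and 13.2 CPM. Untreated and treated libraries were well apart in all 3 lines. SLC29A2 fell in S5A (-2.08, SE 0.24, adjusted p 3.2e-07), the degron line (-1.99, SE 0.22, adjusted p 3.3e-07), Y1F (-1.83, SE 0.23, adjusted p 1.7e-06) and S2A (-1.52, SE 0.22, adjusted p 1.9e-05), up to 4.24-fold. In T4V, where it was picked, 41.5 and 31.5 CPM stood against 10.2 and 7.75 CPM (-2.04). In S7A it fell from 23.7 and 27.1 to 11.8 and 18.7 CPM (-0.73, SE 0.22, adjusted p 0.015), a call lost without S7A untreated library 2 or treated library 1 (adjusted p 0.089 and 0.15). WT, at 41.0 and 38.0 against 26.4 and 40.3 CPM, overlapped and gave no call (-0.24). Without WT treated library 1 the WT value was 0.027.

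The SLC29A2 change lay above the degron line by 1.75 in WT (SE 0.30, adjusted p 0.00054) and differed from WT by -1.84 in S5A (adjusted p 0.00037), -1.59 in Y1F (0.0023) and -1.28 in S2A (0.013), the last lost without WT untreated library 2, WT treated library 2 or S2A treated library 2 (adjusted p 0.057 to 0.085). Its closest genes over 15 group means were ZNF691 (r 0.96), CPSF4 (0.95), a subunit of the cleavage and polyadenylation complex, and PIAS3 (0.95), and over 14 groups without Mock PKIG (0.96), ZNF691 (0.96) and PITPNC1 (0.96), again as descriptions.

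SLC29A1 stood in the degron line at 145 and 117 CPM untreated and 100.01 and 127 CPM treated, which overlap (-0.20, no call). In S5A it dropped from 114 and 125 to 56.7 and 58.9 CPM and in T4V from 135 and 107 to 65.8 and 64.2 CPM, with no overlap. It fell in S5A (-1.05, SE 0.15, adjusted p 1e-05), T4V (-0.90, SE 0.15, adjusted p 0.00019), S2A (-0.86, SE 0.16, adjusted p 0.00022) and Y1F (-0.78, SE 0.15, adjusted p 0.0003), and gave no call in WT (-0.13) or S7A (-0.31; adjusted p 0.048 without S7A treated library 2). Against WT the change was lower in S5A (-0.91, adjusted p 0.0054) and S2A (-0.72, adjusted p 0.045), and the S2A call was lost without any 1 of 6 libraries (adjusted p 0.10 to 0.21).

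The log2 ratio of SLC29A2 to SLC29A1 in TPM summarises the pair within each library. It went from -0.58 to -2.38 in the degron line, a difference of -1.80, and from -1.01 to -2.03 in Y1F, -0.99 to -2.03 in S5A and -0.10 to -0.76 in S2A. In S7A it went from -1.45 to -1.90 and in T4V from -1.07 to -2.21. Treated and untreated libraries did not overlap in these 6 lines, and they overlapped in WT (-0.13). With 2 libraries against 2 an exact permutation test cannot go below p = 0.33, so no test is given for the ratios, and the T4V value holds a gene picked on it.

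**Figure D5:**
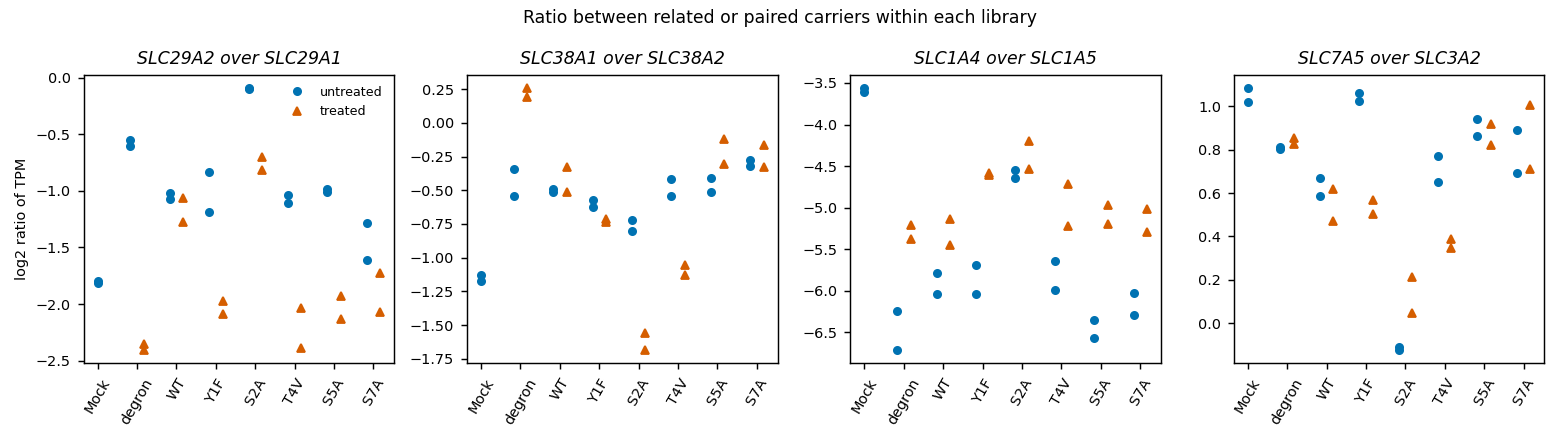
log2 ratio of TPM between 2 carriers within each library, untreated (circles) and treated (triangles), by line. SLC29A2 over SLC29A1 drops in the degron line from -0.58 to -2.38, and SLC38A1 over SLC38A2 rises there and drops in S2A and T4V.

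SLC7A5 (chr16:87830023-87869488, minus strand) and its partner SLC3A2 (chr11:62856102-62888875, plus strand) were called in few lines with the TMM scaling. SLC7A5 fell in Y1F, from 333 and 272 to 190 and 206 CPM (-0.61, SE 0.19, adjusted p 0.014), a call lost without Y1F untreated library 1 or treated library 1 (adjusted p 0.074 and 0.059). In the other lines no call was made: -0.38 in the degron line, -0.43 in T4V, -0.47 in S5A, 0.20 in WT, 0.27 in S2A and 0.29 in S7A. Leaving out 1 library gave a call in the degron line (-0.65, without treated library 2), in T4V (-0.68, without untreated library 2) and in S7A (0.54, without treated library 1). Under both other scalings SLC7A5 fell in the degron, Y1F, T4V and S5A lines (-1.49 to -0.86), and with the authors' factors it also fell in S7A (-0.56, adjusted p 0.012). SLC3A2 fell in S5A, from 221 and 233 to 172 and 164 CPM (-0.44, SE 0.15, adjusted p 0.02), and in the degron line, from 213 and 189 to 130 and 173 CPM (-0.41, SE 0.15, adjusted p 0.031), the latter lost without untreated or treated library 1 (adjusted p 0.18 and 0.16). Elsewhere its values were -0.10 to 0.27 with no call, but it also fell in Y1F, S2A and T4V by mitochondrial scaling (-0.67 to -0.47) and in those lines and S7A by the authors' factors (-0.98 to -0.50). Its change in WT lay above the degron line by 0.69 (adjusted p 0.038), lost without any 1 of 5 libraries (adjusted p up to 0.19), and below WT in S5A (-0.71, adjusted p 0.024), lost without any 1 of 4 (adjusted p up to 0.13). The SLC7A5 to SLC3A2 ratio moved by -0.51 in Y1F, -0.34 in T4V, 0.25 in S2A and 0.03 in the degron line with no overlap, and overlapped in WT, S5A and S7A.

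SLC1A5, the glutamine carrier (chr19:46774883-46788594, minus strand), had 615 to 4005 counts a library. In the degron line SLC1A5 went from 210.4 and 186 to 87.6 and 116 CPM, in Y1F from 218 and 178 to 98.3 and 116 CPM and in T4V from 246 and 173 to 109 and 109 CPM. The 2 untreated T4V libraries differed by more than the treated ones, but no treated library reached an untreated one in these lines. It fell in the degron line (-0.96, SE 0.16, adjusted p 7.6e-05), T4V (-0.94, SE 0.17, adjusted p 0.00023), Y1F (-0.89, SE 0.17, adjusted p 0.00018) and S5A (-0.83, SE 0.16, adjusted p 0.00026). S2A, with 78.0 and 78.8 CPM untreated, ended lowest, at 56.2 and 52.1 CPM (-0.53, SE 0.17, adjusted p 0.018; 0.064 without S2A untreated library 1 and 0.072 without treated library 2). No call was made in WT, at 188 and 167 against 175 and 220 CPM (0.15), or in S7A, at 178 and 209 against 153 and 196 CPM (-0.15). The change was higher in WT than in the degron line by 1.11 (adjusted p 0.0027), and differed from WT by -1.10 in T4V (0.011), -1.05 in Y1F (0.0062) and -0.99 in S5A (0.0051).

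SLC1A4 (chr2:64988477-65023865, plus strand) was the one member with called rises, and these depend on the scaling. It stood at 5.97 and 6.32 CPM in untreated WT and at 10.4 and 10.5 CPM in treated WT, and at 4.74 and 6.70 against 9.83 and 10.4 CPM in S7A. In S5A the values were 4.35 and 5.33 against 7.64 and 6.44 CPM. All 3 pairs of groups were apart, at 67 to 153 counts a library. The rises were 0.77 in WT (SE 0.19, adjusted p 0.019), 0.83 in S7A (SE 0.19, adjusted p 0.002) and 0.55 in S5A (SE 0.20, adjusted p 0.03). The WT call was lost without either untreated library or treated library 2 (adjusted p 0.10 to 0.17), the S7A call without untreated library 1 (0.06) and the S5A call without any 1 of its 4 libraries (0.053 to 0.27). None of the 3 rises was called under the other scalings. Under mitochondrial scaling the values were 0.55 in WT (adjusted p 0.11), 0.43 in S7A (0.12) and -0.20 in S5A (0.48), and under the authors' factors 0.53 in WT (0.19), 0.0032 in S7A (1) and -0.41 in S5A (0.14). Against WT the change was lower in S2A (-1.07, SE 0.28, adjusted p 0.021), lost without any 1 of 6 libraries (adjusted p 0.052 to 0.096). The SLC1A4 to SLC1A5 ratio was higher after treatment in all 7 lines, by 0.23 (S2A) to 1.38 (S5A), with no overlap in any.

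SLC7A1, the arginine and lysine carrier (chr13:29509410-29595688, minus strand), had the closest replicates of the 10, with standard errors of 0.08. It stood at 219.9 and 219.6 CPM in the untreated degron line and at 89.0 and 92.6 CPM after treatment, and at 206 and 202 against 78.4 and 80.003 CPM in S5A. In T4V 212 and 201 CPM became 110.2 and 109 CPM, and in S2A 189 and 190.0 CPM became 101 and 103 CPM. In each of these lines the 2 levels are set far apart compared with the gap between replicates. SLC7A1 fell in S5A (-1.36, adjusted p 2.7e-11), the degron line (-1.27, 7.3e-11), Y1F (-1.24, 1.6e-10), T4V (-0.91, 5.1e-08), S2A (-0.89, 3.4e-08) and S7A (-0.53, 2.6e-05), and gave no call in WT, at 212 and 202 against 177 and 190.3 CPM (-0.17), where the groups nonetheless did not overlap. Its change was higher in WT than in the degron line by 1.10 (SE 0.11, adjusted p 8.3e-07). Against WT it was lower in S5A (-1.19, adjusted p 3.4e-07), Y1F (-1.07, 2.4e-06), T4V (-0.74, 0.0016) and S2A (-0.72, 0.00038), each with an SE of 0.11, and none of these calls was lost when a library was left out.

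SLC38A1 (chr12:46183063-46270017, minus strand) and SLC38A2 (chr12:46358189-46372867, minus strand) lie close together on the same strand and carry overlapping sets of amino acids. SLC38A1 fell in all lines but WT: -1.26 in the degron line (SE 0.17, adjusted p 3.5e-06), -1.18 in S5A (5.9e-06), -1.10 in S2A (3.5e-05), -0.96 in Y1F (8.1e-05), -0.78 in T4V (0.0012) and -0.74 in S7A (0.0016; 0.053 without S7A treated library 2). In the degron line it went from 223 and 243 to 113 and 82.9 CPM, and in S5A from 264 and 241 to 112 and 111 CPM. Treated WT, at 239.6 and 179.6 CPM, lay below untreated WT, at 246 and 261 CPM, with no call (-0.28). The change was higher in WT than in the degron line by 0.98 (adjusted p 0.0074; 0.055 without degron treated library 2) and lower than WT in S5A (-0.90, adjusted p 0.0095) and S2A (-0.82, adjusted p 0.035; 0.081 to 0.16 without any 1 of 7 libraries).

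SLC38A2 levels split the lines in another way. In the degron line it went from 184 and 231 to 64.0 and 45.0 CPM, and in S5A from 228 and 224 to 79.3 and 88.9 CPM. In S2A 208 and 209 CPM stood against 161 and 196 CPM, and in T4V 184 and 265 against 197 and 199 CPM. The first 2 lines show wide gaps, S2A a small one and T4V an overlap. SLC38A2 fell in the degron line (-1.93, SE 0.22, adjusted p 4e-07), S5A (-1.42, SE 0.21, adjusted p 1.3e-05), Y1F (-0.84, SE 0.21, adjusted p 0.0027) and S7A (-0.77, SE 0.21, adjusted p 0.007; 0.073 without S7A untreated library 1 and 0.15 without treated library 2). No call was made in S2A (-0.23), T4V (-0.18; 0.10 without T4V untreated library 2) or WT (-0.34). Its change was higher in WT than in the degron line by 1.59 (SE 0.30, adjusted p 0.0011) and lower than WT in S5A (-1.08, SE 0.30, adjusted p 0.014), the latter lost without WT treated library 1 (0.067) or S5A treated library 1 (0.064). The log2 ratio of SLC38A1 to SLC38A2 in TPM went from -0.44 to 0.23 in the degron line, from -0.76 to -1.62 in S2A and from -0.48 to -1.09 in T4V, with no overlap. In WT and S7A the ratio libraries overlapped.

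Other genes of amino acid and nucleoside supply were set beside the members by lists, with counts under the TMM scaling first. Of 22 tested amino acid response genes outside the carriers, 12 fell in each of the degron and Y1F lines, 10 in S5A, 6 in S2A, 3 in T4V, 2 in S7A and 0 in WT. When 1 library was left out, 9 to 11 fell in the degron line, 9 to 13 in Y1F and 8 to 10 in S5A. In S2A 4 to 5 fell, in T4V 2 to 5 and in S7A 2 to 3. The shares of all tested genes that fell were 21.4% (degron), 21% (Y1F), 24.2% (S5A), 18.2% (S2A), 14% (T4V), 17.1% (S7A) and 1.84% (WT). With the authors' factors the numbers fallen were 20 in the degron line, 19 in S5A, 16 in Y1F, 16 in S7A, 12 in S2A, 12 in T4V and 0 in WT, and with mitochondrial scaling 16, 18, 14, 7, 13, 16 and 2 in that order. Of all 19982 tested genes 12160, 12495, 11982, 12266, 8771, 6733 and 381 fell with the authors' factors, in the same order of lines. With mitochondrial scaling 8499, 11359, 7326, 7645, 9209, 9645 and 1894 of them did. Between 2 and 4 of the 22 rose in a line with the TMM scaling. Of all tested genes 3.09% rose in WT and 14.8% (T4V) to 25.5% (S5A) in the other lines. The rises among the 22 also depended on single libraries: the 4 in WT became 0 without WT untreated library 2, and the 2 in the degron line became 0 without any 1 of 3 of its libraries. The median log2 change of the 22 was -0.69 in the degron line, 0.19 in WT and -0.37 in S5A. ATF4 itself, the regulator named for this response, fell from 644 ± 33.7 to 102 ± 10.5 CPM in the degron line (-2.66, SE 0.11, adjusted p 6.8e-14), and also in S5A (-2.41, adjusted p 3.5e-13), Y1F (-1.76, 3.8e-11), T4V (-1.11, 1e-07) and S7A (-0.90, 8.4e-07). ATF3, another stress-induced regulator, rose instead: 2.10 in S2A, 1.67 in Y1F, 1.52 in S7A and 1.24 in T4V.

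Of 25 other amino acid carriers tested, 9 fell in S2A and in S5A, 8 in Y1F (5 without Y1F treated library 1), 7 in T4V, 7 in S7A (3 without treated library 2 and 2 without untreated library 1), 3 in the degron line and 0 in WT, with medians between -0.31 and 0.11 and against the same shares of all tested genes. With the authors' factors 18 fell in S5A, 17 in S7A, 16 in Y1F and in S2A, 15 in the degron line, 14 in T4V and 0 in WT. Of all 19982 tested genes 12495, 12266, 11982, 8771, 12160, 6733 and 381 fell there, in the same order of lines. With mitochondrial scaling 17 carriers fell in S2A, 16 in T4V, 15 in S5A, 12 in Y1F, 10 in the degron line and in S7A and 4 in WT. Of all 19982 tested genes 9209, 9645, 11359, 7326, 8499, 7645 and 1894 fell there, in the same order of lines. In S5A 5 carriers rose with the TMM scaling (3 without untreated library 1, untreated library 2 or treated library 2), where 25.5% of tested genes rose. SLC1A1, a glutamate carrier, fell in 6 lines, from -1.01 in the degron line and S5A to -1.46 in Y1F. SLC16A10, an aromatic amino acid carrier, rose by 1.08 in the degron line, 1.23 in Y1F, 1.00 in S5A and 0.69 in S7A (adjusted p 0.063 without S7A treated library 1), but with the authors' factors these values were 0.23, 0.36, 0.04 and -0.12. SLC7A11, the cystine exchanger, rose from 4.84 ± 0.27 to 21.8 ± 5.78 CPM in WT (2.16, SE 0.24, adjusted p 9.7e-06).

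The remaining lists are counted here mainly in S5A, the line with the most calls, where 24.2% of all tested genes fell and 25.5% rose. Under the other scalings most of their members fell, as did 11359 (mitochondrial) or 12495 (authors' factors) of the 19982 tested genes. Of 18 tested nucleoside carriers and salvage enzymes 6 fell and 2 rose (1 without untreated library 2 or either treated library). UCK2, a uridine and cytidine kinase of the salvage pathway, fell in all 7 lines: -1.28 in the degron line, -1.17 in S5A, -1.05 in Y1F, -0.77 in S7A, -0.36 in T4V, -0.35 in S2A and -0.33 in WT, the WT call being lost without WT untreated library 1 (adjusted p 0.23). Mitochondrial scaling gave 15 fallen and 1 risen, the authors' factors 16 and 1. Of 23 serine, glycine and one-carbon enzymes 6 fell and 3 rose (1 without untreated library 2 or either treated library), against 19 and 1 under each of the other scalings. Among them were MTHFD1L, a mitochondrial folate enzyme (-0.82 in Y1F, -0.74 in S2A, -0.72 in S5A and -0.57 in T4V), and CBS, which joins serine and homocysteine (-0.93 in Y1F and -0.91 in S5A). Of 20 cytosolic aminoacyl-tRNA synthetases 6 fell and 2 rose (0 or 1 without any 1 S5A library), against 20 and 0 under each of the others, with AARS1, the alanine enzyme, at -1.01 and FARSA, a phenylalanine enzyme subunit, at -1.17. Of 23 genes of amino acid sensing by mTORC1 7 fell and 6 rose (17 and 0 by mitochondrial scaling, 18 and 0 by the authors' factors), with MLST8, a subunit of mTORC1, at -1.36 in S5A and RRAGD, a Rag GTPase, at -1.30 in the degron line. Among 15 carriers of other nutrients 4 fell and 4 rose (2 without untreated library 2 or treated library 1), against 9 and 2 by mitochondrial scaling and 11 and 1 by the authors' factors. SLC19A1, the reduced folate carrier, fell (-1.84 in S5A, -1.44 in T4V). The genes named from these lists all fell, and genes that rose are not named. In the degron line 7 of the 23 serine, glycine and one-carbon enzymes rose and 1 fell with the TMM scaling. Of the 20 synthetases 4 rose and 2 fell there, where 23.1% of tested genes rose and 21.4% fell. By mitochondrial scaling 1 of the 23 rose and 11 fell, and 0 and 14 of the 20. Of all 19982 tested genes 1942 rose and 8499 fell by that scaling.

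Over all 303 tested genes with an SLC symbol other than the 10, 70 fell and 80 rose in S5A, 67 and 54 in S2A, 62 and 80 in Y1F, 52 and 45 in T4V, 48 and 66 in S7A, 47 and 76 in the degron line and 4 and 13 in WT. Of all tested genes 24.2% fell and 25.5% rose in S5A, 18.2% and 17% in S2A, 21% and 23.1% in Y1F and 14% and 14.8% in T4V. In S7A these shares were 17.1% and 17.8%, in the degron line 21.4% and 23.1% and in WT 1.84% and 3.09%. The median log2 changes of the 303 SLC genes lay between -0.06 and 0.08. Their counts shift with the scaling: in S5A 168 fell and 30 rose by mitochondrial scaling, or 186 and 28 by the authors' factors, and in the degron line 122 and 38, or 189 and 29. Of the 19982 tested genes 11359 fell and 2121 rose in S5A by mitochondrial scaling, or 12495 and 1750 by the authors' factors. In the degron line 8499 and 1942 did, or 12160 and 1384. Leaving out 1 library lowered the number fallen to 39 or 40 in S2A (without untreated library 1 or treated library 2), to 34 or 32 in T4V (without treated library 1 or 2) and to 24 or 28 in S7A (without untreated library 1 or treated library 2). The number risen became 28 or 23 in T4V (without treated library 1 or 2) and 52 in S5A (without untreated library 2), and in WT 1 to 7 fell and 4 to 21 rose, depending on which of its 4 libraries was absent. The SLC genes as a whole had a median near that of all tested genes in each line under the TMM scaling. The 10 members were chosen with these data in view, so their lower medians are not set against this list by a test.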

How the data were processed

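Poly(A) RNA from 30 libraries in 15 groups of 2 was sequenced. Per the submitters' processing notes, Trim Galore 0.6.2, STAR 2.7.3a, featureCounts 2.0.1, DESeq2 1.24.0 and the builds hg38 and dm6 were used. Not given in the sources used here are strand settings and the use of the spike-in, and 0 fly genes are in the tables. The authors deposited raw read counts and TPM per gene, and separate DESeq2 tables per line with a base mean (a normalised signal), log2 fold changes, log2 standard errors, p-values and test statistics (a score). TPM served for levels between genes and ratios, and counts for all tests.

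The main test was edgeR 4.0.16 (R 4.3.3): TMM factors, filterByExpr (minimum count 10, minimum total 15), which left 19982 of 61578 genes, and a robust quasi-likelihood fit with 1 coefficient per group over all 30 libraries (15 residual degrees of freedom). In all, 20 comparisons were made: 7 of treated with untreated, 6 differences in change and 7 between untreated groups. p-values were adjusted by Benjamini-Hochberg over all tested genes within a comparison, and a call needs an adjusted p under 0.05. Standard errors were taken from the F statistic. The alternatives were DESeq2 1.42.0, other scalings (13 mitochondrial mRNAs, the authors' factors), no low-count filter, a replicate block, the 4 libraries of a line alone, no Mock and leaving out each library. Simulated counts for S5A (18201 genes) had 66 or 67 genes changed at each size and the same spread (dispersion 0.0122) for every gene. In them the edgeR test recovered 22.7% of genes changed by 0.5 on the log2 scale, 92.5% at 1 and 100% at 2, with 7 false calls. In the data 4830 genes fell and 5098 rose in S5A, so these recovery rates need not hold there. Depth was 10866089 to 17912802 counts a library.

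The members and lists were chosen with earlier results of these data known. Besides the 10 members, the named genes are, per list and line, up to 3 called genes with the largest fold change and a mean of at least 5 CPM, the 3 genes most correlated with SLC6A9 and with SLC29A2 over group means, marker genes and POLR2A. Some results are not reported here. Tables were handled with Python 3.11.15, numpy 2.4.6, pandas 2.3.3 and matplotlib 3.10.9.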

Additional observations from a re-analysis of the deposited data

Results flagged for a closer look

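Between lines, 27 of the tested differences in the treated minus untreated log2 change passed an adjusted p under 0.05 in edgeR's quasi-likelihood test. Each comparison tested 10 members, or 8 in T4V. Of all tested genes 8.24% lay higher in WT than in the degron line. Lower than WT were 11.7% in S5A, 6.31% in Y1F, 4.66% in S2A and 2.35% in T4V. WT lay above the degron line for SLC6A9 (2.05), SLC29A2 (1.75), SLC3A2 (0.69), SLC1A5 (1.11), SLC7A1 (1.10), SLC38A1 (0.98) and SLC38A2 (1.59). Y1F minus WT gave -2.59 for SLC6A9, -1.59 for SLC29A2, -1.05 for SLC1A5 and -1.07 for SLC7A1. S2A minus WT gave -1.65 for SLC6A9, -1.28 for SLC29A2, -0.72 for SLC29A1, -0.72 for SLC7A1, -0.82 for SLC38A1 and -1.07 for SLC1A4. T4V minus WT gave -1.10 for SLC1A5 and -0.74 for SLC7A1. S5A minus WT gave -3.18 for SLC6A9, -1.84 for SLC29A2, -0.91 for SLC29A1, -0.71 for SLC3A2, -0.99 for SLC1A5, -1.19 for SLC7A1, -0.90 for SLC38A1 and -1.08 for SLC38A2. The WT libraries enter all of these, and the treated WT pair is one of those that stood far apart. Several calls were lost when 1 library was left out. In S2A minus WT these were all but that of SLC7A1. The others were SLC1A5 in T4V minus WT, SLC3A2 and SLC38A2 in S5A minus WT, and SLC3A2 and SLC38A1 in WT minus degron.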

How the results depend on the processing

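With all scalings centred on the typical gene (DESeq2's size factors), with no low-count filter, with the 4 libraries of a line alone and without Mock (an alternative chosen after seeing the data), no member reversed except SLC3A2 in S2A, at -0.00437 without Mock. Mitochondrial scaling gave 3 members called in WT, 8 in T4V, 5 in T4V minus WT, 3 in untreated S2A and 1 in untreated S5A. By that scaling 2121 of 19982 tested genes were lower and 26 higher in T4V minus WT. In untreated S2A 2807 were lower and 4178 higher, and in untreated S5A 474 and 4894. The authors' factors gave 0 in WT, 7 in T4V, 9 in S7A, 10 in Y1F minus WT and 8 in S7A minus WT. The WT line alone gave 0 calls. With no low-count filter the counts were 7 in Y1F minus WT, 4 in T4V minus WT, 1 in untreated WT, 2 in untreated T4V and 1 in untreated S5A, and DESeq2 gave 2 in untreated T4V. The shares of all tested genes called without the filter and by DESeq2 are not given here, so these counts are not set against them.

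Under mitochondrial scaling the signs turned for SLC1A4 in the degron line (-0.23) and S5A (-0.20), SLC7A5 in WT (-0.00346), S2A (-0.23) and S7A (-0.0913), SLC1A5 in WT (-0.0572), and SLC3A2 in S2A (-0.48) and S7A (-0.18). With the authors' factors they turned for SLC1A4 in the degron line (-0.62), Y1F (-0.50) and S5A (-0.41), SLC1A5 in WT (-0.0462), SLC7A5 in S2A (-0.26) and S7A (-0.56), and SLC3A2 in S2A (-0.50) and S7A (-0.63). Of these SLC3A2 in S2A was called under both scalings, and SLC1A4 in the degron line, SLC7A5 in S7A and SLC3A2 in S7A under the authors' factors. In the treated against untreated comparisons both scalings put the median tested gene lower than TMM did. The cause of the turned signs was not tested.

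When each library was left out, the members called were 6 to 8 in the degron line, 0 to 1 in WT, 7 to 8 in Y1F, 5 to 6 in S2A, 4 to 5 in T4V, 8 to 8 in S5A and 3 to 5 in S7A. For differences in change they were 6 to 7 in WT minus degron, 4 to 6 in Y1F minus WT, 1 to 6 in S2A minus WT, 1 to 3 in T4V minus WT, 7 to 8 in S5A minus WT and 0 in S7A minus WT. For untreated groups they were 8 to 10 for degron against Mock, 0 for WT, Y1F and S5A, 1 to 5 for S2A, 0 to 1 for T4V and 1 for S7A. Uncalled values crossed 0 for SLC1A4 in the degron line (-0.11 to 0.43) and T4V (-0.38 to 0.13), in WT for SLC6A9 (-0.25 to 0.73), SLC29A2 (-0.58 to 0.0274), SLC29A1 (-0.35 to 0.0499), SLC7A5 (-0.0856 to 0.44) and SLC1A5 (-0.0247 to 0.31), for SLC3A2 in Y1F (-0.30 to 0.00745), S2A (-0.0353 to 0.0343) and T4V (-0.27 to 0.066), for SLC38A2 in T4V (-0.50 to 0.10) and for SLC7A5 in S7A (-0.0619 to 0.54).

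Whether replicate numbers pair the libraries cannot be told here, as each line gives only 1 correlation and the signs differ. Deviations of same-numbered treated and untreated libraries correlated at -0.31 (degron), -0.15 (WT), -0.16 (Y1F), 0.04 (S2A), -0.03 (T4V), 0.01 (S5A) and 0.24 (S7A). With the replicate block untreated Y1F had 1 member called, SLC29A1 in S2A minus WT was at -0.72 (adjusted p 0.057), and no other member changed its call. In the simulated counts, with 2 libraries a group, most changes of 0.5 on the log2 scale were missed. That simulation changed far fewer genes than were called in the data. Among the members some values near that size were called (SLC7A1 in S7A, -0.53) and others were not (SLC7A5 in S5A, -0.47). An uncalled member is therefore not shown to be constant.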
